A study of Mus musculus with 4 samples.

Results

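Melanocyte genes were followed in the cochlear duct of the mouse embryo through 9 transcripts, *Ednrb*, *Kit*, *Mitf*, *Tyr*, *Tyrp1*, *Dct*, *Pmel*, *Mlana* and *Slc45a2*. They were found by their gene symbol among the probes of 4 Agilent 2-colour arrays, which gave 9 genes with 13 probes, of 29924 gene names with 39429 probes on the array. Each array compared cochlear ducts of *Sox2-Tbx2LOF* embryos, labelled *Sox2*(creERT2);*Tbx2*(fl/fl), with ducts of control embryos, labelled *Tbx2*(fl/n.d.), all on the NMRI background, at embryonic day E14.5 and after 4 mg of tamoxifen given orally to the dam at E12.5. The study asked what the loss of *Tbx2* in the prosensory domain, the strip of epithelium that forms the organ of Corti, does to the transcripts of the duct before hair cells arise.

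The creERT2 sequence sits in the *Sox2* locus and is active after tamoxifen in cells that express *Sox2*. The controls lacked cre according to the methods, so loss of *Tbx2*, the activity of cre and the altered *Sox2* allele separate the same pools and cannot be told apart. The crosses in the methods also bring in a fluorescent reporter allele, *R26* mTmG, which the labels do not list. The spiral ganglion was removed from the ducts, and each sample was a pool of 23 to 27 ducts of 1 sex. Female pools were on arrays 1 and 2, male pools on arrays 3 and 4. The mutant carried the dye Cy5 on arrays 1 and 3, and the dyes were swapped on arrays 2 and 4. There were thus 4 mutant and 4 control pools.

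Melanocytes of the inner ear come from the neural crest, partly through Schwann cell precursors that travel along nerves, and settle in the lateral wall of the cochlear duct. There they become the intermediate cells of the stria vascularis, which carry the potassium current behind the endocochlear potential. Their precursors depend on the receptor tyrosine kinase KIT and its ligand KITL and on the endothelin receptor EDNRB and its ligand EDN3, and the transcription factor MITF then turns on the genes of melanin synthesis. NMRI is an albino stock, so its melanocytes carry no melanin while still expressing these genes. Probes do not show which cells a transcript came from.

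The arrays were alike in brightness and in the share of probes detected. Median spot brightness was 263 to 292 in Cy3 and 496 to 563 in Cy5, between 69.2% and 72.0% of probes were well above background in a pool, and no spot was saturated. Over all tested genes, the Pearson correlation of ratios was 0.68 between arrays 1 and 3 and 0.62 between arrays 2 and 4. Within each of these pairs the mutant carried the same dye. Between arrays with swapped dyes the correlation lay between -0.10 and 0.071, so ratios over all genes followed the dye more than the genotype or sex. The targeted gene, *Tbx2*, stood at -0.12 ± 0.098 (SD, n = 4 arrays) as log2 of mutant over control, with a limma adjusted p of 0.124, in whole ducts of which the prosensory domain is only a part. In the study's own staining at E14.5, TBX2 protein was absent from recombined cells of the future organ of Corti. Whether the *Tbx2* probe lies in the deleted stretch was not analysed here. All 9 melanocyte genes passed the filter on dim probes and were among the 21042 genes tested. In all 8 pools 12 of their 13 probes were well above background, the exception being a probe of *Tyr*, which was so in all mutant and 3 of 4 control pools. The transcripts that define melanocytes (*Dct*, *Tyr*, *Tyrp1*, *Pmel* and *Mlana*) were thus measurable in every pool, although the study's labels speak only of cochlear duct.

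One of the 9 genes fell in the mutant. *Ednrb* was 1.51-fold lower and was the only one of the 9 with a limma adjusted p below 0.05. Of all tested genes 2.92% were lower and 2.26% higher at that adjusted p. With a 1.5-fold change also required, the share was 0.309% lower (65 genes) and 0.133% higher (28 genes). The ratios of the other 8 genes lay between -0.14 and 0.093 on the log2 scale, and none of them passed the test. Levels below are normalized log2 signals of a pool, which can be compared between pools for 1 probe but not between probes, and ratios are log2 mutant over control within an array.

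**Figure D1:**
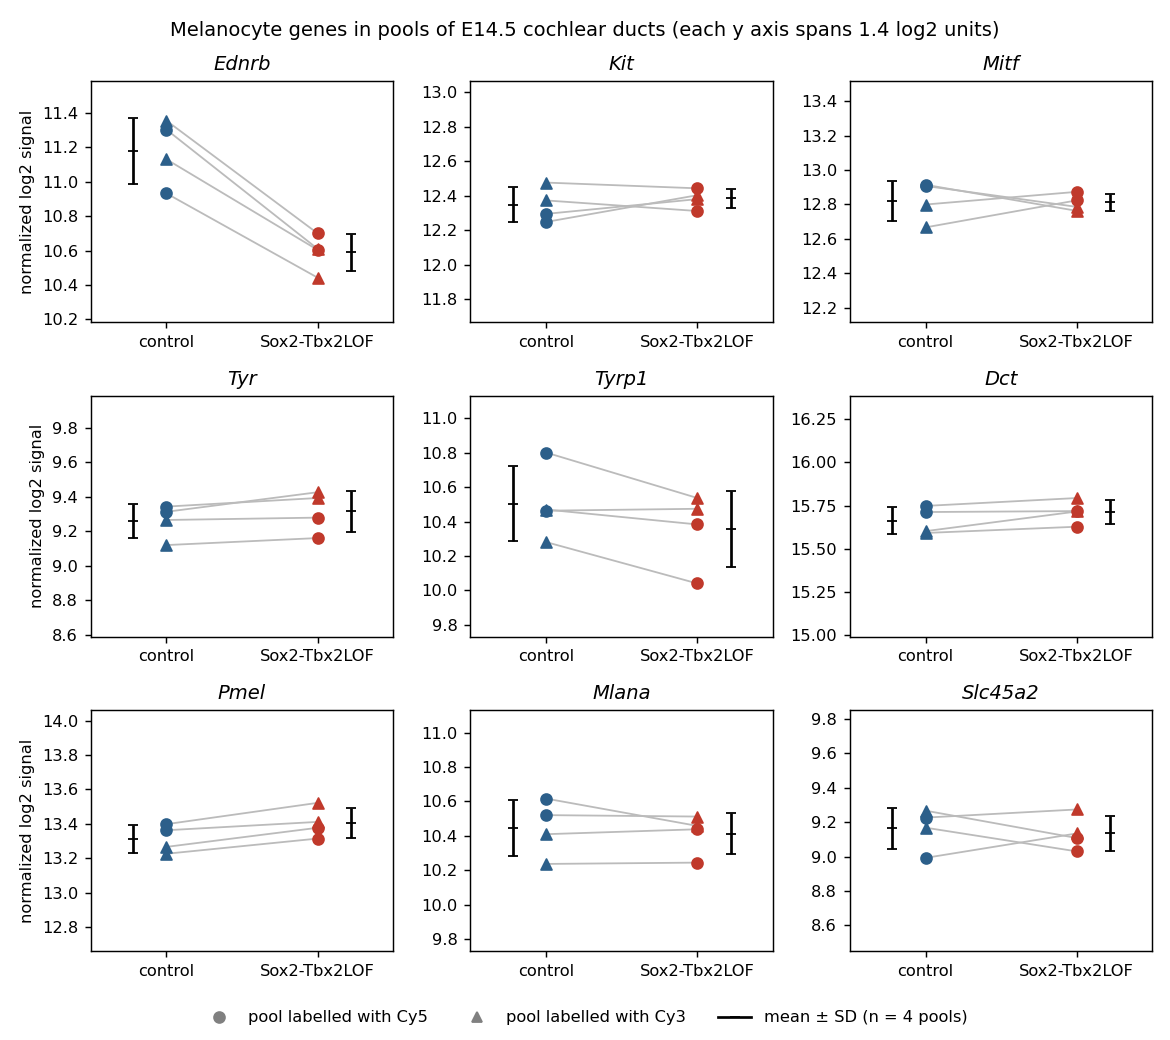
Normalized log2 signal of the 9 melanocyte genes (y axes, each spanning the same number of log2 units) in the control and *Sox2-Tbx2LOF* pools (x axes), with circles for pools labelled with Cy5, triangles for Cy3, grey lines joining the pools of an array, and black bars for the mean ± SD of 4 pools. The 4 mutant pools lie below the 4 control pools for *Ednrb*, by at least 0.23, and the groups overlap for the other 8 genes.

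*Ednrb* encodes the G protein-coupled receptor for endothelins that precursors of melanocytes and of enteric neurons need, and it is also expressed by glia. Its level was 10.60, 10.44, 10.70 and 10.61 in the mutant pools of arrays 1 to 4 and 11.13, 10.93, 11.36 and 11.30 in the control pools. Every mutant pool was below every control pool. Levels of 2.54% of all tested genes were separated in this way in the lower direction, and *Ednrb* was the only one of the 9 genes with separated levels. The ratio was -0.53, -0.49, -0.66 and -0.69 on arrays 1 to 4, with a mean of -0.59 ± 0.098 (SD, n = 4 arrays), a 95% interval of -0.70 to -0.49 and a limma adjusted p of 0.000359. As a fold this is 1.51 with an interval of 1.40 to 1.62, so the estimate stood just past the required fold of 1.5 while the interval reached below it. Without array 3 the ratio was -0.56 and without array 4 it was -0.54, both with an adjusted p below 0.05 (0.0173 and 0.000218) but short of that fold. On each of the 4 arrays *Ednrb* had the lowest ratio of the 9 genes.

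A second probe of *Ednrb* also fell, by less. The probe whose values stand for the gene lies at chr14:104214484-104214543 on the minus strand (mm9, as the array files give it), and the other lies at chr14:104220870-104220929, upstream by 6386 bases on the transcript's strand. The upstream probe is printed because it measures a different stretch of the gene:

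Ednrb upstream probe: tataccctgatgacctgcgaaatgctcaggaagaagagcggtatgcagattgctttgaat

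Its level was 8.04, 7.97, 8.07 and 7.68 in the mutant pools and 8.24, 8.35, 8.29 and 8.02 in the control pools. The lowest control pool overlapped the mutant pools, but on each array the mutant was the lower of the pair. The ratio was -0.20, -0.38, -0.22 and -0.33, with a mean of -0.28 ± 0.089 (SD, n = 4) and a limma adjusted p of 0.00477 in the fit over all 27963 probes tested, in which 2.31% of probes were lower at an adjusted p below 0.05. Both probes thus gave a lower value in the mutant on 4 of 4 arrays, with fold changes of 1.51 and 1.22. Of all tested genes 9.31% were below 0 on 4 of 4 arrays. The mean over both probes was -0.44, which passes the adjusted p (0.000376) and not the fold. With Agilent's processed signals the ratio was -0.62 for the probe that stands for the gene and -0.41 for the upstream probe. The files tie the probes to different transcript records of *Ednrb*.

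*Kit* encodes the receptor of KITL, which melanoblasts need to survive and migrate, and which mast cells and blood progenitors carry as well. Its level was 12.44, 12.40, 12.31 and 12.38 in the mutant pools and 12.48, 12.25, 12.37 and 12.29 in the control pools. The groups overlapped, and the mutant was lower on arrays 1 and 3 and higher on arrays 2 and 4, which is the split by dye. The ratio was 0.037 ± 0.10 (SD, n = 4), with an interval of -0.044 to 0.12 and a limma adjusted p of 0.624.

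*Mitf* encodes the transcription factor at the head of the pigment cell programme. In the mutant pools its level was 12.82, 12.79, 12.87 and 12.76, and in the control pools 12.67, 12.91, 12.80 and 12.91. Here the mutant was higher on arrays 1 and 3 and lower on arrays 2 and 4, again the split by dye. The mean ratio was -0.011 ± 0.15 (SD, n = 4), with an interval of -0.092 to 0.071 and a limma adjusted p of 0.909. The other *Mitf* probe had a ratio of 0.0093 ± 0.13, and with neither probe did *Mitf* differ beyond the spread between arrays.

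The genes of melanin synthesis are shown with the sequence through which MITF is known to act on them. Its classical target is the M-box, an extended E-box around the letters CATGTG. Among the 300 bases from 250 before to 50 after each annotated start in RefSeq (GRCm38.p6), 6 of the 9 genes had an entry, and CATGTG on either strand was in the windows of 3, *Tyrp1*, *Tyr* and *Dct*. It was not in those of *Kit*, *Mitf* and *Ednrb*, and *Pmel*, *Mlana* and *Slc45a2* were without an entry. Of all 32851 windows of this length 14.2% held CATGTG, while the longer GTCATGTGCT, which is found around a CATGTG of each of the 3 enzymes, was in 0.186%. Counted by gene, the shares were 15.9% and 0.155% of 27025 genes. The longer string was chosen after the sequences had been seen. In the following stretches, 5′ to 3′ on the gene's strand, capitals mark CATGTG:

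Tyrp1 promoter, chr4:80834147-80834192, plus strand: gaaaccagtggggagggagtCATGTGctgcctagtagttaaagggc
Tyr promoter, chr7:87493508-87493553, minus strand: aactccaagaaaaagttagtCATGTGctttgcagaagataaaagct
Dct promoter, chr14:118052371-118052416, minus strand: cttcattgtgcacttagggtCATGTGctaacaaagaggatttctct

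The match began 46 bases before the annotated start in *Tyrp1*, 21 before it in *Tyr* and 150 before it in *Dct*. *Dct* held a second CATGTG on the opposite strand, from 232 to 227 bases before its start. These matches describe the windows and say nothing of binding in the cochlea.

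*Tyr* encodes tyrosinase, the rate-limiting enzyme of melanin synthesis. Its level was 9.16, 9.39, 9.28 and 9.43 in the mutant pools and 9.12, 9.34, 9.27 and 9.31 in the control pools. The mutant pool was the higher one on each array, by 0.014 to 0.11, but the groups overlapped. The ratio was 0.055 ± 0.042 (SD, n = 4), with an interval of -0.026 to 0.13 and a limma adjusted p of 0.436. The other probe of *Tyr*, at chr7:94576265-94576324, had a ratio of -0.066 ± 0.10, and a mean over both probes turned the sign to -0.0057. The probe that stands for the gene lies at chr7:94632414-94632473 on the minus strand (mm9) and reads:

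Tyr probe: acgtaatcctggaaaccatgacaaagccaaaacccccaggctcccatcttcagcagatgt

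*Tyrp1* encodes tyrosinase-related protein 1, which acts in the later steps of eumelanin synthesis. Its level was 10.04, 10.47, 10.38 and 10.54 in the mutant pools and 10.28, 10.46, 10.47 and 10.80 in the control pools. Pools of the same genotype lay up to 0.50 apart in the mutant, more than the mutant and control pool of any array did. The ratio was -0.24, 0.011, -0.086 and -0.26, with a mean of -0.14 ± 0.13 (SD, n = 4). Its unadjusted limma p was 0.0253 and its adjusted p 0.176. With 1 array left out the ratio moved between -0.076 (adjusted p 0.656, without array 4) and -0.21 (adjusted p 0.0437, without array 2, the 1 array with a ratio above 0).

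*Dct* encodes dopachrome tautomerase, which is expressed from the melanoblast stage on and serves as the usual marker of that stage. Its level was 15.63, 15.72, 15.72 and 15.79 in the mutant pools and 15.59, 15.71, 15.60 and 15.75 in the control pools. The mutant pool was again the higher one on each array, by 0.0055 to 0.11, while all 8 pools lay within 0.20 of each other. The ratio was 0.050 ± 0.046 (SD, n = 4), with an interval of -0.031 to 0.13 and a limma adjusted p of 0.488. The other *Dct* probe shares 44 of its bases with the first, so its ratio of 0.044 ± 0.077 is not a separate measurement of the gene.

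*Pmel* encodes the protein of the fibrils on which melanin is laid down in the melanosome. Its level was 13.38, 13.41, 13.31 and 13.52 in the mutant pools and 13.27, 13.36, 13.23 and 13.40 in the control pools. On each array the mutant pool was the higher one, by 0.049 to 0.12, and the groups overlapped. The ratio of 0.093 ± 0.033 (SD, n = 4) was the highest of the 9, with an interval of 0.012 to 0.17, an unadjusted limma p of 0.0295 and an adjusted p of 0.189.

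*Mlana* encodes MART-1, a membrane protein of early melanosomes. Its level was 10.24, 10.51, 10.44 and 10.46 in the mutant pools and 10.24, 10.52, 10.41 and 10.62 in the control pools. On arrays 1 to 3 mutant and control differed by at most 0.029, and on array 4 the mutant was lower by 0.16. The ratio was -0.033 ± 0.085 (SD, n = 4), with a limma adjusted p of 0.701.

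*Slc45a2* encodes a transporter of the melanosome membrane that is mutated in a form of albinism. Its level was 9.11, 9.13, 9.03 and 9.27 in the mutant pools and 9.27, 8.99, 9.17 and 9.23 in the control pools. The mutant was lower on arrays 1 and 3 and higher on arrays 2 and 4, the split by dye. The ratio was -0.027 ± 0.15 (SD, n = 4), with a limma adjusted p of 0.735.

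**Figure D2:**
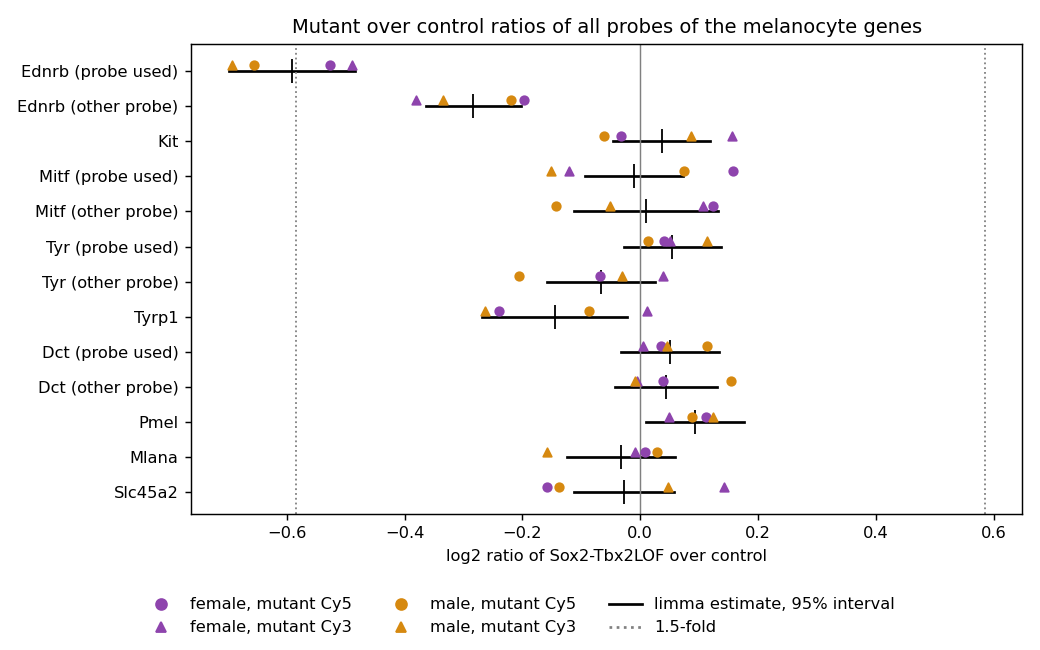
Log2 ratio of *Sox2-Tbx2LOF* over control (x axis) for each of the 13 probes (y axis), with 1 point per array, purple for female and orange for male pools, circles where the mutant carried Cy5 and triangles where it carried Cy3, and bars for the limma estimate with its 95% interval. Both *Ednrb* probes lie left of 0 on all 4 arrays, and no ratio of the other genes' probes is larger in size than 0.26. Where a gene has several probes, the one marked as used stands for it in the text.

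For the 8 genes beside *Ednrb* the intervals set the size of change that these arrays leave possible. The lowest bound was -0.27 for *Tyrp1*, a 1.20-fold decrease, and the highest was 0.17 for *Pmel*, a 1.13-fold increase, so the 95% interval of every one of the 8 excluded a change of 1.5-fold. Of the 8 ratios 4 were above and 4 below 0, with a median of 0.013, and the median over all tested genes was 0.0024. By the probes that stand for the genes, *Tyr*, *Dct* and *Pmel* were above 0 on 4 of 4 arrays, a direction shared by 8.85% of all tested genes. The other probe of *Tyr* was above 0 on 1 of 4 arrays and the other probe of *Dct* on 2 of 4. None of the 8 was below 0 on all arrays, as 9.31% of all tested genes were. In this bulk tissue fewer cells of a type and less RNA per cell cannot be told apart, and these values concern the pools as a whole.

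No difference in ratio between female and male pools passed the test. For *Ednrb* it was -0.51 on the female and -0.67 on the male arrays, a difference of 0.17 with an unadjusted limma p of 0.0768 and an adjusted p of 1.00. The other 8 genes had differences between -0.059 and 0.065. This fit leaves 1 residual degree of freedom, and of all 21042 tested genes it called 0 at an adjusted p below 0.05, with 558 genes at an unadjusted p below 0.05.

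The ligands of both receptors and the factors upstream of *Mitf* were examined as a list of 17 genes, of which 0 were higher and 2 were lower at a limma adjusted p below 0.05 (2.26% and 2.92% of all tested genes). The ligand *Edn3* had a ratio of 0.31, 0.098, -0.062 and 0.11 on arrays 1 to 4, with a mean of 0.11 ± 0.15 (SD, n = 4) and an adjusted p of 0.323. *Kitl* had a ratio of 0.15 ± 0.24 and an adjusted p of 0.345. With 1 array left out it moved between 0.015 (adjusted p 0.970, without array 4) and 0.29 (adjusted p 0.0111, without array 2). *Sox10*, the neural crest factor that activates *Mitf* and that glia keep, stood at 0.0099 ± 0.077 (adjusted p 0.917), with a sign that turned to -0.031 under median centring. *Pax3*, which acts with it, had a ratio of 0.17 ± 0.30 (adjusted p 0.199), which moved in the same way between 0.061 (adjusted p 0.730, without array 4) and 0.28 (adjusted p 0.00807, without array 2). The ratio of *Zeb2*, a factor of neural crest migration, was -0.18 ± 0.30 (adjusted p 0.145), and it lay between -0.083 without array 3 and -0.27 without array 1 (adjusted p 0.424 and 0.0491).

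Both genes of this list that passed are expressed early in the neural crest. *Foxd3*, which holds crest cells in an undifferentiated or glial state and represses *Mitf*, had a ratio of -1.18, -0.91, -1.45 and -1.16 on arrays 1 to 4, with a mean of -1.17 ± 0.22 (SD, n = 4) and a limma adjusted p of 6.67e-05. *Tfap2a*, an activator of crest and melanocyte genes, had -0.25, -0.25, -0.34 and -0.30, with a mean of -0.29 ± 0.042 and an adjusted p of 0.00437. *Sox10* and *Mitf* did not pass.

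Of 24 further genes of melanosomes and pigmentation, 2 were higher and 1 was lower at a limma adjusted p below 0.05, none of them past 1.5-fold, and the median ratio was 0.0083. *Mreg*, which encodes melanoregulin, a factor in the distribution of melanosomes, had a ratio of -0.75, -0.25, -0.65 and -0.39, with a mean of -0.51 ± 0.23 (SD, n = 4) and an adjusted p of 0.000396, and it passed 1.5-fold with Agilent's processed signals (-0.68), an offset of 10 (-0.59) and the series table (-0.65). *Trpm1*, a cation channel gene of melanocytes and a target of MITF, had a ratio of 0.25 ± 0.14 (adjusted p 0.0378), whereas its other 2 probes stood at -0.082 and -0.080. *Rab32*, a small GTPase that sends enzymes to the melanosome, rose by 0.19 ± 0.076 (adjusted p 0.0389). Of 16 alternative ways of processing, 8 left *Trpm1* and 10 left *Rab32* with an adjusted p above 0.05. Genes that melanocytes express strongly, such as *Oca2* (0.12), *Slc24a5* (-0.041), *Gpnmb* (-0.055), *Gpr143* (0.0026) and *Mc1r* (-0.037), did not pass.

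Of 5 genes of the intermediate cells of the stria, *Kcnj10*, the potassium channel gene those cells need to generate the endocochlear potential and which glia express too, was lower. Its ratio was -0.48, -0.23, -0.70 and -0.12, with a mean of -0.38 ± 0.26 (SD, n = 4) and a limma adjusted p of 0.00349, and without the dye term the adjusted p was 0.177. The ratio of *Kcnj13*, a related channel gene, was -0.11 ± 0.26 (adjusted p 0.139). *Met*, *Nrp2* and *Cd44* had ratios of 0.10, 0.10 and -0.0055 and did not pass.

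**Figure D3:**
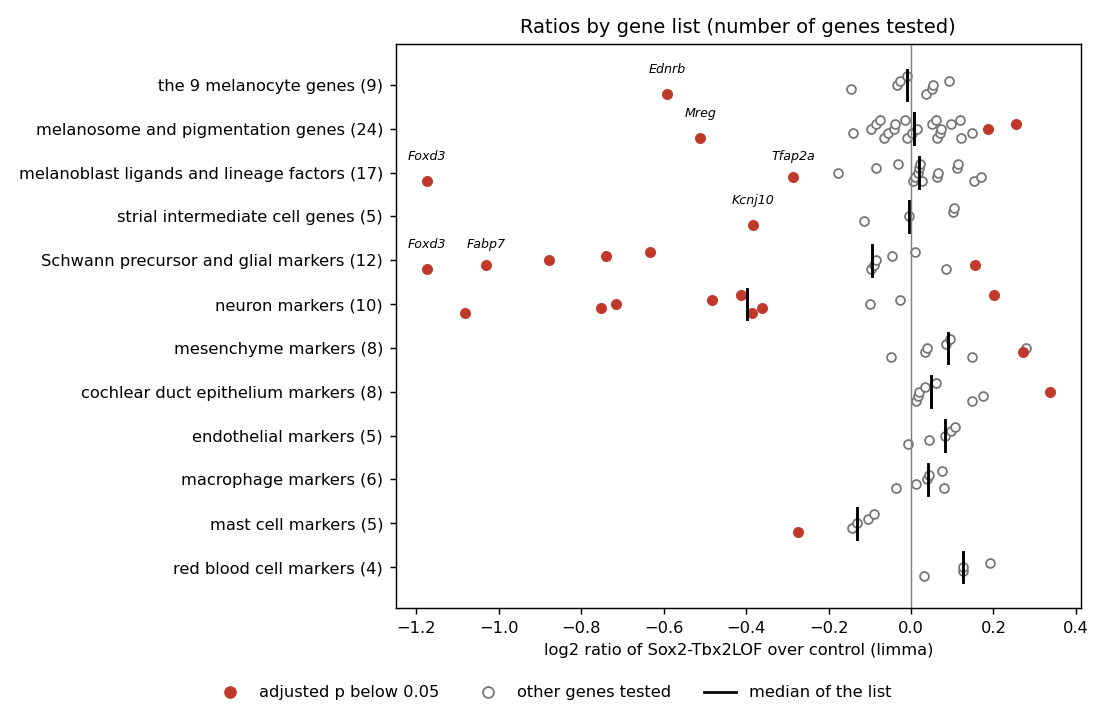
Log2 ratio of *Sox2-Tbx2LOF* over control from limma (x axis) for the genes of each list (y axis, with the number of genes tested), with filled points for an adjusted p below 0.05, open points for the other genes and black bars for the median of a list. *Ednrb* stands apart from the other 8 melanocyte genes, which lie between -0.14 and 0.093, and the filled points left of -0.6 belong to the lists of glia, of neurons and, through *Foxd3*, of lineage factors.

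Since *Ednrb*, *Foxd3* and *Kcnj10* are also transcripts of glia, markers of other cells in the tissue are given beside them. Of 12 markers of Schwann cell precursors and glia, 5 were lower and 1 was higher at a limma adjusted p below 0.05, the lower ones all past 1.5-fold and the higher one not. Those lower were *Foxd3*, *Fabp7*, which encodes a fatty acid binding protein of immature glia (-1.03 ± 0.14), *Dhh*, which encodes the hedgehog ligand of Schwann cells (-0.88 ± 0.10), *Ngfr*, which encodes the neurotrophin receptor p75 (-0.74 ± 0.086) and *Cdh19*, a cadherin gene of Schwann cell precursors (-0.63 ± 0.19, SD, n = 4 each, limma adjusted p at most 0.000459). *Cdh19* was short of 1.5-fold without array 3 (-0.56) and lay at -1.08 with Agilent's processed signals. Neither *Fabp7* nor *Ngfr* marks glia alone. The study lists *Fabp7* among lowered genes known from the inner part of the organ of Corti. It also used NGFR protein as a marker of pillar cells, which are supporting cells of that organ. The median of the list was -0.094, and *Sox10*, *Erbb3*, *Mbp*, *S100b* and *Gfra3* did not pass. All 12 markers were well above background in every pool. Their summed linear signal was 187792 to 217984 in the mutant and 194052 to 225282 in the control pools, ranges that overlap. It was lower in the mutant on 2 of 4 arrays. Such a sum, here and for the lists below, weighs the brightest probes most and does not measure the amount of a cell type.

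Neuron markers were lower too, although the spiral ganglion had been removed. Of 10 tested, 7 were lower and 1 was higher at a limma adjusted p below 0.05, and *Elavl3* (-1.08 ± 0.36), *Pou4f1* (-0.75 ± 0.13) and *Nefm* (-0.72 ± 0.21) were lower past 1.5-fold, with a median of -0.40 for the list. The other 4 that fell were *Nefl* (-0.48), *Stmn2* (-0.41), *Tubb3* (-0.39) and *Elavl4* (-0.36), genes of the neuronal cytoskeleton or, in the last case, of an RNA-binding protein of neurons. The exception that was higher was *Isl1* (0.20, adjusted p 0.0245). When the channels were not paired by array, only 4 of the 10 were lower and 0 higher, *Elavl3*, *Nefl*, *Tubb3* and *Isl1* no longer passing. The summed signal of the list was 51326 to 57899 in the mutant and 52767 to 55266 in the control pools, lower in the mutant on 2 of 4 arrays. The part that glia or neurons in the dissected tissue have in the lower level of *Ednrb* was not tested.

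Of 8 mesenchyme markers 1 was higher, *Col1a1* (0.27, limma adjusted p 0.00448), a collagen gene, and *Col1a2* and *Twist1* had 0.28 and 0.15. Of 8 markers of the cochlear duct epithelium 1 was higher, *Gata3* (0.34, adjusted p 0.00929), which encodes a transcription factor of the otic epithelium, and *Cdh1* and *Otx2* had 0.18 and 0.15. None passed of 5 endothelial markers (*Cdh5* at 0.11, *Tie1* at 0.083 and *Kdr* at 0.096 had the smallest adjusted p), of 6 macrophage markers (*C1qa* at 0.080, *Aif1* at 0.076, *C1qb* at 0.044) and of 4 red blood cell markers (*Hba-a1* at 0.19, *Alas2* at 0.13, *Hbb-b1* at 0.13). Mast cells express *Kit* and *Mitf*, and 5 of 6 of their markers were tested. *Mcpt4*, a mast cell protease gene, was lower (-0.27, adjusted p 0.0413), and *Cpa3* and *Cma1*, of the same kind, had -0.14 and -0.13. The summed signal of the mast cell list was 3755 to 4181 in the mutant and 4004 to 4683 in the control pools, lower in the mutant on 4 of 4 arrays. *Kit* and *Mitf* stood at 0.037 and -0.011, and the part of mast cells in their signal was not tested. *Fcer1a*, a chain of their receptor for immunoglobulin E, was not well above background in any pool.

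The 9 genes did not vary as 1 group across the pools. After the mean of each dye was taken away, the Pearson correlation of levels over the 8 pools was 0.92 between *Mlana* and *Tyrp1*, 0.90 between *Tyr* and *Dct*, 0.88 between *Mitf* and *Mlana* and 0.84 between *Dct* and *Pmel*. It was -0.85 between *Kit* and *Mlana* and -0.84 between *Kit* and *Mitf*. Many genes outside the 9 lay closer than the partners with a high correlation. *Mlana* was the 257th closest gene of *Tyrp1* and the 325th of *Mitf*. *Dct* was the 701st closest of *Tyr* and the 213th of *Pmel*. *Ednrb* reached at most 0.40 with another of the 9, *Tyrp1*, which made *Tyrp1* its 5018th closest gene. The genes most like *Ednrb* were *5830408B19Rik* (r = 0.995), *Megf10* (r = 0.993), which encodes an engulfment receptor of astrocytes and muscle precursors, and *Gpr17* (r = 0.990), which encodes an orphan receptor of oligodendrocyte precursors, with log2 ratios of -0.28, -0.44 and -0.82 and limma adjusted p of 0.00515, 0.000533 and 0.000194. For the other 8 genes the 3 closest had r between 0.970 and 0.996, such as *Cdh16*, *Epha1* and *Sap130* for *Dct* and *Fitm2* and *Pld2* for *Tyrp1*, and none of the 9 was among them. The 8 points share arrays and dyes, and in the case of *Ednrb* the difference between genotypes as well, so these correlations describe the pools only.

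**Figure D4:**
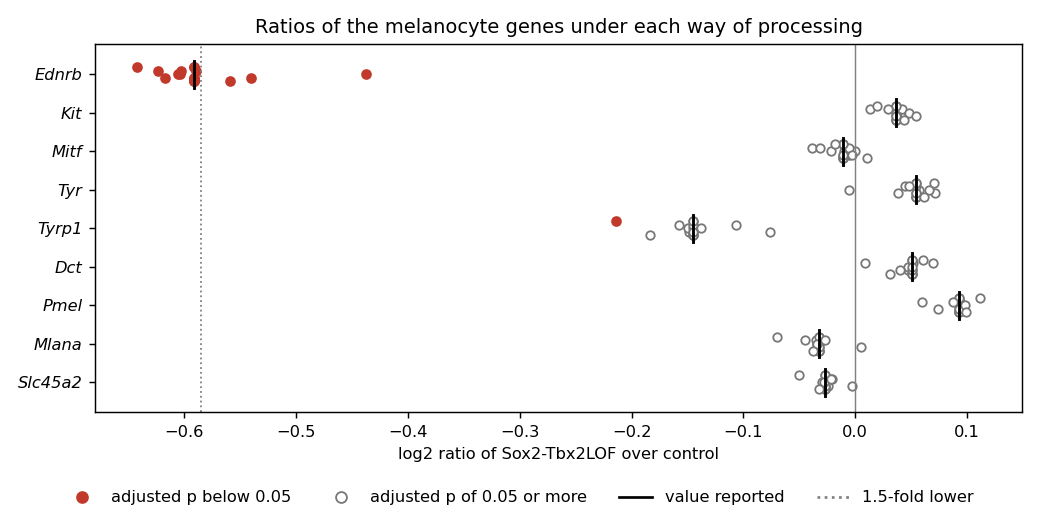
Log2 ratio of *Sox2-Tbx2LOF* over control (x axis) of the 9 melanocyte genes (y axis) under the main processing and 16 alternatives, 1 point each, filled where the adjusted p was below 0.05, with a black bar at the value reported and a dotted line at 1.5-fold lower. *Ednrb* lies between -0.64 and -0.44 and is filled in all 17, and of the other genes only *Tyrp1* is filled, in 1.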

How the data were processed

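RNA of 8 pools was hybridised on 4 arrays of 1 slide, read in 1 scan. Groups, sexes and dyes came from the labels. In the files deposited by the authors (Agilent Feature Extraction 10.7.3.1), intensity values are mean spot brightness, median local background and Agilent's processed signal, the last one background-subtracted and dye-normalized. The deposited log10 ratio was not used. The authors' series value table holds a score that behaves as a signed fold change (correlation with the log2 ratios computed here 0.882 to 0.913), its normalization being unstated.

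Here, background was corrected with normexp (offset 50) and ratios were normalized by loess within arrays. Control spots and spots with outlier marks had weight 0 and the latter were left out, 19 of the 208 spots of the 9 genes. Averages over the spots of each probe were taken, probes with fewer than 4 of 8 channel measurements well above background were dropped, and the probe with the highest mean signal stood for a gene. Levels come from the separate channels after Aquantile normalization. Genes were fitted with limma 3.58.1 in R 4.3.3 (genotype and dye terms, 2 residual and 5.65 prior degrees of freedom) with Benjamini-Hochberg adjustment over all 21042 genes. A call needed an adjusted p below 0.05 and a fold of at least 1.5. The genes and lists were chosen with earlier results of these data known. Named are the 9 genes, of each list those with an adjusted p below 0.05 or among its 3 smallest, *Kitl*, *Edn3*, *Sox10*, *Pax3*, *Foxd3*, *Tbx2*, and the 3 genes most like *Ednrb* in level over pools. Further genes named among those that did not pass were picked for their known role. Of the glial list, 2 genes are counted but not reported here singly. The number of arrays limits the precision. Mutant and control pools are paired by sharing an array. The script was tested on simulated data. Alternatives were processed signals, offset 10, median centring, other filters, no dye term, the mean over probes, kept spots with outlier marks, the 2 channels taken separately (array as a block or not), sex as a term, the series table, and each array left out. Probe coordinates are those of the files (mm9), and promoters are from RefSeq (GRCm38.p6). Exon positions of probes were not analysed here.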

Additional observations from a re-analysis of the deposited data

How the results depend on the processing

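*Ednrb* had a limma adjusted p below 0.05 under the main processing and all 16 alternatives (9.43e-07 to 0.0324), with ratios between -0.64 and -0.44, and passed 1.5-fold in 14 of these 17. It missed that fold with the mean over probes, without replicate 3 and without replicate 4, so that the number of the 9 genes called lower was then 0, and 0 to 1 when an array was left out. The number with an adjusted p below 0.05 was 1 to 2 when an array was left out, being 2 without replicate 2, when *Tyrp1* passed. Ratios near 0 turned sign for *Mitf* without replicate 3 (0.010), *Mlana* without replicate 4 (0.0050, the range with an array left out being -0.070 to 0.0050), *Tyr* with the mean over probes (-0.0057) and *Sox10* with median centring (-0.031), without replicate 3 (-0.015) and without replicate 4 (-0.0041, the range with an array left out being -0.015 to 0.035). Over all genes 52 were called higher and 117 lower with Agilent's processed signals, and 99 lower with the series table, against 28 and 65. Separate channels with the array as a replicate block amount to the same fit as the main one on ratios. The counts of 28 and 65 were therefore fixed in advance there, and this alternative is no separate check. Without the replicate block the counts were 23 and 53, with *Ednrb* at an adjusted p of 0.0324. In that fit *Tfap2a* (0.0783), *Elavl3* (0.101), *Nefl* (0.161), *Tubb3* (0.299), *Isl1*, *Gata3*, *Col1a1*, *Mcpt4*, *Rab32* and *Trpm1* were no longer below 0.05. Without the dye term *Kcnj10*, *Elavl4* and *Col1a1* missed it. *Cdh19* was -1.08 with processed signals and with the series table. Of the 16 alternatives, *Rab32* missed the threshold under 10, *Mcpt4* under 9, *Trpm1* and *Isl1* under 8 each, *Gata3* under 4 and *Col1a1* under 2. *Zeb2* passed without replicate 1 (-0.27, adjusted p 0.0491). The causes of these moves were not tested. With 4 arrays on 1 slide, probes near background and small differences between sexes are beyond the precision of these data.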

Other observations

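Pools of the same genotype and dye also differed between sexes in the level of some of the 9 genes. The female pool was the lower one in all 4 such pairs for *Ednrb* (female minus male -0.37 to -0.096 on the log2 scale), *Tyrp1* (-0.34 to -0.063) and *Dct* (-0.089 to -0.011), and in 13.6% of all tested genes. In the other direction, in which 7.99% of all tested genes lay, there was none of the 9. Each sex is on arrays of its own, so sex and array cannot be told apart here, and no test was made.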
